A study of Mus musculus with 12 samples.

Results

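The genes of the activator protein 1 (AP-1) family were examined for H3K27ac, the acetylated form of histone H3 that marks active promoters and enhancers. The 9 genes were Fos, Fosb, Fosl1, Fosl2, Jun, Junb, Jund, Atf3 and Batf3. They were chosen by name, and the authors' nearest-gene annotation carried these names at 43 of 126464 intervals. The 43 intervals belonged to 7 of the 9 genes, and no interval was assigned to Fosb or Fosl1. H3K27ac had been measured by chromatin immunoprecipitation and sequencing (ChIP-seq) in 4T1 cells, an established mouse mammary carcinoma line that metastasises, so the results describe 1 line. All cells were treated for 48 h. In 3 of the 6 groups acetate was absent: vehicle, etomoxir at 50 µM, and etomoxir with SB204990, also at 50 µM. In the other 3 the same media held 5 mM acetate (acetate, etomoxir + acetate, and etomoxir + SB204990 + acetate). Acetate feeds acetyl-CoA, from which histones are acetylated. Etomoxir blocks the carnitine palmitoyltransferase step of fatty acid import into mitochondria, and the target of SB204990 is ATP citrate lyase, which releases acetyl-CoA from citrate. There were 2 libraries per group and 12 in all, with 1 of each group in set 1 and 1 in set 2, named for a shared suffix of the labels.

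AP-1 is a dimer of basic leucine zipper (bZIP) proteins that binds DNA at sites such as TGANTCA. Fos-family proteins dimerise with Jun-family proteins, while Jun-family proteins can also pair with one another or with ATF proteins. Fos, Fosb, Jun and Junb are classical immediate early genes, induced within minutes by growth factors through MAP kinases, and Atf3 is induced by stress. Fosl1 and Fosl2 encode FRA1 and FRA2, and FRA1 is known from invasive breast carcinoma cells. Batf3 encodes a small bZIP protein best known from dendritic cells.

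The upstream sequences of Fos, Jun and Atf3 are shown because they alone of the 8 windows searched held, before the start, a motif other than the common GGGCGG, and each lay inside an H3K27ac interval of these cells. They are the 150 bases before the RefSeq start in GRCm38.p6 (mm10), 5′ to 3′ on the strand of the gene. Capitals mark TATAAA in Fos, the AP-1/CRE-like element TGACATCA in Jun and, read on the opposite strand, TGATGCAA in Atf3, the composite element bound by C/EBP and ATF proteins. GGGCGG, which each of the 3 also holds on the opposite strand, is left in lower case.
Fos, chr12:85473740-85473889 (+): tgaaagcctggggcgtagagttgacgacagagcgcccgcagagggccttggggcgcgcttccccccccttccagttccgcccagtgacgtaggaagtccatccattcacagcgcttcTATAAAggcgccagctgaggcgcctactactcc
Jun, chr4:95052223-95052372 (-): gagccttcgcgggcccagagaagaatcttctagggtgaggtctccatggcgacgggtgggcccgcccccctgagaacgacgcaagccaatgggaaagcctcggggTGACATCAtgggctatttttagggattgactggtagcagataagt
Atf3, chr1:191183334-191183483 (-): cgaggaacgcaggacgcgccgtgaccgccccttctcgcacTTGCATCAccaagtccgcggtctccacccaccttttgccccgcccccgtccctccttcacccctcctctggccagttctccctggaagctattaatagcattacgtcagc

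RefSeq windows of 250 bases before to 50 after the start were matched for 8 of the 9 genes, and both strands were searched. TATAAA was found in the windows of Fos and Junb and in 13.6% of 32851 windows of all genes. TGACATCA was found only in that of Jun among the 8 (3.62% of all windows), and TGATGCAA only in that of Atf3 (0.895%). TGANTCA, TGACGTCA and the CArG box were in none of the 8, and 7.81%, 1.79% and 1.63% of all windows held them. Sequence outside the windows was not searched. Some RefSeq starts lay away from the GENCODE starts, at Jund chr8:70697739 against 70698949. GGGCGG, the Sp1-type box, occurred in 6 of the 8 windows, those of Fos, Fosb, Fosl2, Jun, Atf3 and Batf3, and in 35.7% of all windows. A match is a stretch of letters and shows no binding.

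H3K27ac at the AP-1 genes was of 3 kinds: very wide blocks over the start site, a locus with several separate intervals, and narrow or weak intervals. Junb and Fosl2 had the widest blocks that carried their own name. The Junb interval (chr8:84957715-84999293) was 41579 bp long and the 390th longest of the table, and it also covered the starts of Gm49661, Hook2, Prdx2 and Rnaseh2a. The Fosl2 interval (chr5:32123671-32164603) was 40933 bp long, held no other coding start, and carried 94.0% of the signal of the 19 intervals assigned to Fosl2. The Jund interval (chr8:70669523-70705740) was 36218 bp long and shared with Iqcn and Lsm4. The Jun interval (chr4:95048299-95058715) was 10417 bp long and carried 98.6% of the Jun signal.

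The signal of Fos was spread over its locus. Its 10 intervals lay between 14645 bp upstream and 23711 bp downstream of the GENCODE start, measured to the interval centre, and the interval over the start site (chr12:85471326-85475016) carried 30.4% of their sum. Batf3 had 4 intervals, and the one over the start (chr1:191096915-191098897) carried 70.9% of the sum. By the authors' classes, 28 of the 43 intervals were intergenic, 10 were in introns, 2 were promoter intervals, 2 were near a transcript end and 1 was exonic.

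The start sites of Fosb and Fosl1 were marked by H3K27ac, although no interval bore their names. The GENCODE start of Fosb lay in an interval of 68345 bp (chr7:19298375-19366719) that was assigned to Gm44698 and also covered the starts of Cd3eap, Ercc1 and Ppp1r13l. That of Fosl1 lay in an interval of 27820 bp (chr19:5443657-5471476) assigned to Ccdc85b, which also covered Ccdc85b, Ctsw and Fibp. For Atf3, the GENCODE start lay in no interval, while the RefSeq start, inside the gene, lay in an intronic interval of 6756 bp (chr1:191179515-191186270) assigned to Fam71a. This interval had a mean of 221 scaled reads over the 12 libraries, and none of the 5 intervals assigned to Atf3 exceeded 49.1. Because of these assignments, the values of the intervals over the 9 start sites are given beside the sums over the intervals assigned to 7 genes. A block that spans several starts cannot be divided among its genes.

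A value is the number of reads in an interval multiplied by the spike-in factor of the library, and is called scaled reads. The libraries held 7179165 to 16676442 reads in intervals, the fewest with etomoxir + SB204990 in set 2 and the most with acetate in set 1. Factors lay between 0.398 and 1, and since each set contained a library with a factor of 1, each had a scale of its own. In bulk cells, more mark per cell and more cells with the mark cannot be told apart. Of 10 epithelial markers, 8 had intervals of their own (median percentile 88.2 of all symbols for the list), while Krt7 and Krt18 had none. Of 4 blood, 3 endothelial, 2 muscle, 2 liver and 2 neuronal markers, 4 had no interval (1 blood, 1 liver and both muscle markers), and 1 marker each of blood, endothelium, liver and neurons lay in the upper part of all symbols.

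In vehicle, Junb carried the densest H3K27ac of the 9 start sites and Batf3 the weakest. Per kb of the interval over the start, the values in both vehicle libraries were 87.5 and 85.3 scaled reads at Junb, 69.8 and 72.7 at Fosl1, and 67.7 and 67.1 at Fosl2. They were 67.6 and 60.2 at Jun, 56.1 and 60.7 at Jund, and 55.4 and 57.7 at Fosb. Lower values were found at Fos (27.4 and 31.6), Atf3 (23.1 and 30.0) and Batf3 (16.0 and 20.4). Neighbours in this order overlapped between libraries for Fosl2 and Jun, Jun and Jund, Jund and Fosb, and Fos and Atf3, and did not overlap for the other neighbours.

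The order varied little over the treatments. Junb was the highest of the 9 in 11 of 12 libraries, Fosl1 stood next to the top in 10, and Fos, Atf3 and Batf3 were the lowest, in that order, in all 12. Against all intervals of the table, the density over the 12 libraries lay at percentile 99.9 for Junb, 99.8 for Fosl1 and 99.6 for Fosl2. The values were 95.8 for Fos, 92.0 for Atf3 and 80.8 for Batf3. Summed over assigned intervals, Junb ranked 165th of 22264 symbols, Fosl2 275th and Jund 509th, and Batf3 ranked 14826th.

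**Figure D1:**
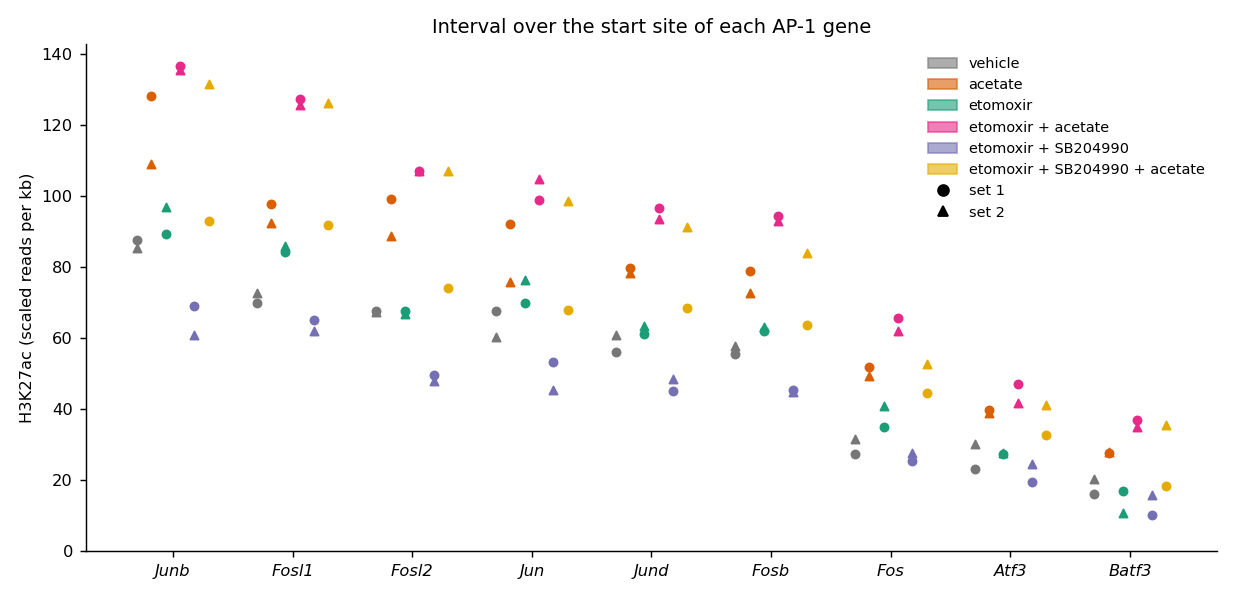
H3K27ac in scaled reads per kb of the interval over the start site of each of the 9 AP-1 genes, with 1 point per library, coloured by treatment (circles, set 1; triangles, set 2). The etomoxir + acetate libraries stand highest at Jun, with 98.8 and 105, and the etomoxir + SB204990 libraries lowest, with 53.1 and 45.3.

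The first question was whether acetate, given alone or on top of the inhibitors, came with more H3K27ac at the AP-1 genes. On the deposited spike-in scale the 7 genes with assigned intervals were higher with acetate in each of the 6 same-set pairs of libraries, with or without inhibitors. The total of scaled reads over all intervals was also higher with acetate in each of these pairs. For this and the later pair counts, the share of all genes alike in every pair was not counted. Averaged over the 3 backgrounds, all 7 passed the test, but 88.2% of all genes did so too, so the gain was shared by most genes tested. After median-of-ratios scaling, which sets the shift of the typical gene to 0, none of the 7 passed and the sign turned at Jun, Junb and Jund. The test was limma on log2(scaled reads + 1) in 1 fit of the 6 groups, for symbols with a mean of at least 10, at a Benjamini-Hochberg adjusted p under 0.05.

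Fos, the partner of the Jun proteins that is induced first in many responses, had 344 and 376 scaled reads in vehicle and 609 and 593 with acetate. With etomoxir it had 419 and 427, and 836 and 779 with etomoxir + acetate. With both inhibitors it had 285 and 387, and 526 and 651 when acetate was added. The libraries with and without acetate did not overlap in any of the 3 backgrounds. The totals of scaled reads over all intervals did not overlap in any of them either. Here and at the genes below, the share of all genes without overlap was not counted. At Fos, the average acetate effect was a log2 fold change of 0.83 ± 0.11 (SE; limma adjusted p = 1.4e-05), where the median of all genes was 0.63.

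Junb, a Jun-family protein that can restrain Jun, had 3638 and 3548 scaled reads in vehicle and 5325 and 4530 with acetate. It had 3716 and 4021 with etomoxir, and 5673 and 5626 with etomoxir + acetate. With both inhibitors the values were 2872 and 2523, against 3867 and 5466 with acetate added. Groups with and without acetate did not overlap, and the pair with both inhibitors plus acetate had the widest spread. The average effect was 0.59 ± 0.10 (limma adjusted p = 3.7e-05) on the spike-in scale and -0.05 after median-of-ratios scaling.

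Jun, which forms the core of most AP-1 dimers, had 710 and 635 scaled reads in vehicle and 968 and 799 with acetate. With etomoxir it had 742 and 801, and with etomoxir + acetate 1043 and 1116. With both inhibitors it had 557 and 484, and with acetate on top 717 and 1036. These groups did not overlap either. Its average acetate effect, 0.53 ± 0.11 (limma adjusted p = 0.00018), was the smallest of the 7 and lay at percentile 21.8 of all genes.

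Fosl2 rose on the spike-in scale from 2891 and 2939 scaled reads in vehicle to 4253 and 3903 with acetate. The libraries did not overlap, and the average effect was 0.67 ± 0.10 (limma adjusted p = 1.6e-05). Jund, often the most constantly expressed Jun protein, changed by 0.60 ± 0.10 (limma adjusted p = 2.3e-05) on that scale and by -0.04 after median-of-ratios scaling. Atf3 changed by 0.75 ± 0.15 (limma adjusted p = 0.00011) and Batf3 by 0.82 ± 0.21 (limma adjusted p = 0.00093).

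Relative to all genes, Fos, Batf3 and Atf3 lay in the upper part (percentiles 93.0, 92.7 and 83.3 of the average acetate effect), Fosl2 near the middle (63.4), and Jund, Junb and Jun below it (40.3, 36.7 and 21.8). After median-of-ratios scaling the average effects were 0.19 for Fos (limma adjusted p = 0.13), 0.20 for Batf3, 0.12 for Atf3, 0.03 for Fosl2 and -0.10 for Jun. On that scale 0.0719% of all genes passed. Fos, Batf3 and Atf3 were also the 3 genes with the lowest values per kb of interval (26.5, 19.8 and 18.5 over the 12 libraries), and the part of this density in the order was not tested. Within the sets, the average acetate effect ran from 0.43 at Jun to 0.94 at Atf3 in set 1 and from 0.56 at Atf3 to 0.92 at Batf3 in set 2.

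**Figure D2:**
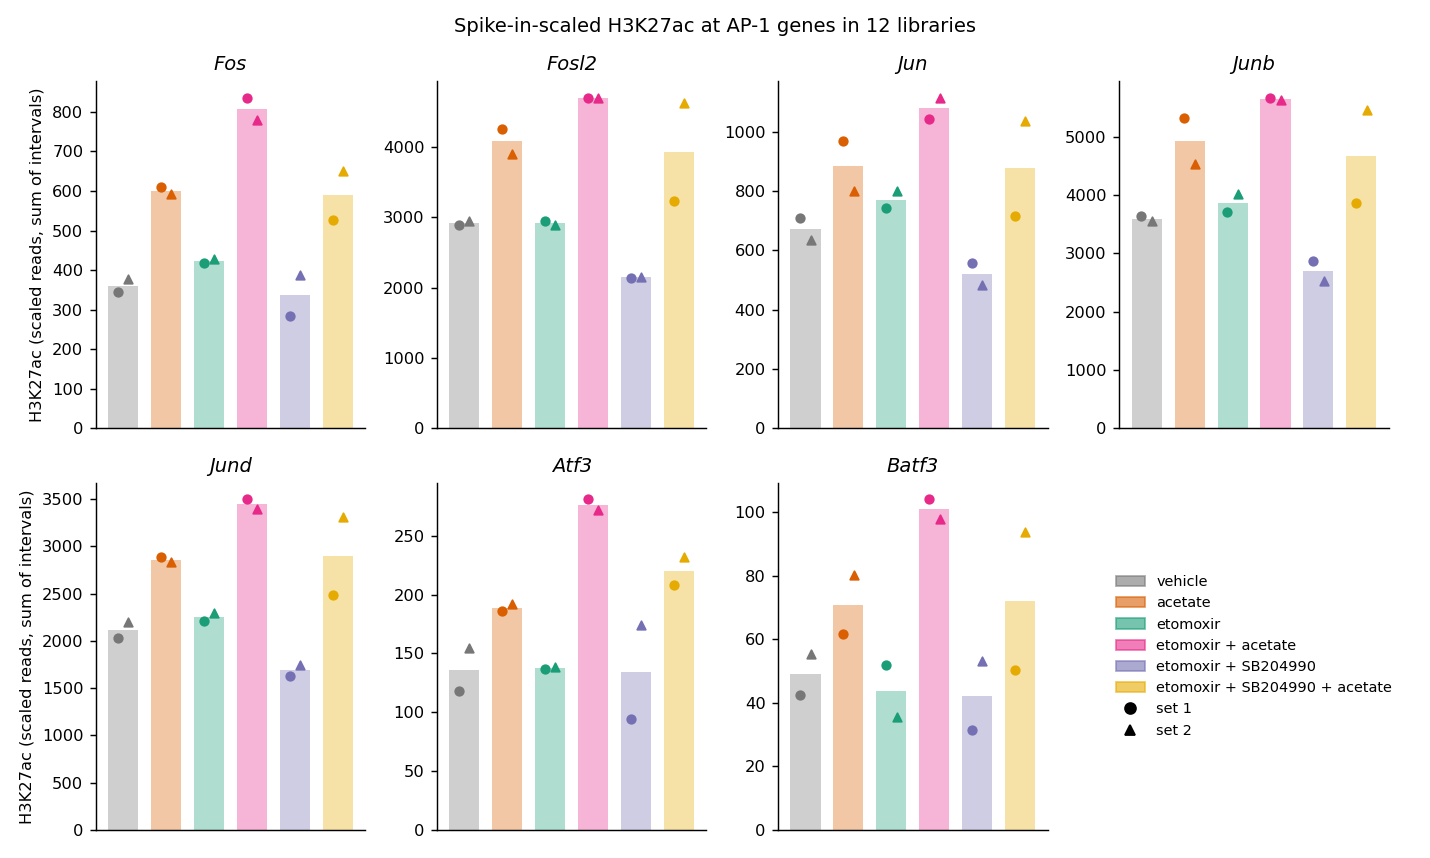
Sum of scaled H3K27ac reads over the intervals assigned to each of 7 AP-1 genes in the 12 libraries (bars, group means of 2; circles, set 1; triangles, set 2). On this spike-in scale every acetate-treated library stands above the library of the same set and background without acetate, and Fos spans 285 to 836 scaled reads.

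Split by background, acetate without inhibitors gave values of 0.39 to 0.74 on the log2 scale, and 0 of 7 genes passed in limma, where 0% of all genes passed. At an unadjusted p under 0.05, 4 of the 7 did, as did 8341 of 19458 genes tested. Further counts at an unadjusted p are given without such a share and cannot be set against all features. edgeR called 0 and DESeq2 called 4 of the 6 genes to which it gave an adjusted p, as it did 25.6% of all genes with one. A fit of only the 4 libraries compared called 6 of the 7, and 61.5% of all genes. Fos had the largest value, 0.74 ± 0.20 (limma adjusted p = 0.10, percentile 92.8). Leaving out the etomoxir + SB204990 library of set 1 or of set 2 gave 6 calls (61.1% and 61.2% of all genes), and leaving out that with acetate of either set gave 4 (11.9% of all genes).

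Acetate added to etomoxir raised all 7 genes on the spike-in scale, where 78.2% of all genes passed and the median of all genes was 0.79. The members differed most here: Batf3 changed by 1.21 ± 0.36, Atf3 by 1.00 ± 0.26 and Fos by 0.93 ± 0.20, and Jun only by 0.48 ± 0.20 (percentile 5.43 of all genes). After median-of-ratios scaling the values were 0.44 for Batf3 and -0.30 for Jun, and none of the 7 passed (limma adjusted p = 0.74 or more). Without the etomoxir + acetate library of set 1 3 of the 7 passed on the spike-in scale (28.8% of all genes), and without the etomoxir library of set 2, 4 did (37.9% of all genes).

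Acetate added to both inhibitors raised 6 of 7 genes on the spike-in scale, where 57.7% of all genes passed and the median of all genes was 0.64. After median-of-ratios scaling the values ran from 0.08 to 0.20, and none of the 7 passed (limma adjusted p = 0.97 or more), as did 0% of all genes. The values were close to one another, from 0.73 at Jun to 0.85 at Fosl2, and Batf3 (0.74 ± 0.36, limma adjusted p = 0.080) did not pass. By set, the change in set 1 and in set 2 was 0.36 and 1.10 at Jun, 0.43 and 1.12 at Junb, 0.59 and 1.10 at Fosl2, and 1.13 and 0.41 at Atf3. Without the acetate-treated library of set 2 none of the 7 passed (0% of all genes), and a fit of only the 4 libraries compared called 0 of the 7 genes (4 at an unadjusted p under 0.05) and 0 of the 20 intervals, beside 0% of all genes and 0.00156% of all intervals. Without the etomoxir + SB204990 library of set 2, which had the fewest reads, all 7 did (91.4% of all genes). The acetate effect was not shown to differ between backgrounds: neither interaction was called for any of the 7 genes by limma, edgeR or DESeq2 (limma adjusted p = 0.77 or more), none had an unadjusted p under 0.05 in any of these tools, and 0% of all genes were called in limma.

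The intervals over the start sites were higher with acetate as well on the spike-in scale, and so were most of the separate intervals. For the average acetate effect, all 9 intervals over a start site passed on the spike-in scale, those of Fosb (0.57 ± 0.10, limma adjusted p = 9.5e-08) and Fosl1 (0.58 ± 0.10, limma adjusted p = 5.4e-08) included, where 77.2% of all intervals tested did so. After median-of-ratios scaling 0 of the 9 passed in limma, 1 had an unadjusted p under 0.05, and the values ran from -0.12 to 0.35. Of the 43 assigned intervals, 20 had a mean of at least 10 and were tested, and 19 of these passed on the spike-in scale. The one that did not was a weak interval 18861 bp upstream of the GENCODE start of Fosl2 (0.47 ± 0.30, limma adjusted p = 0.13).

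By background, 0 of the 20 intervals passed for acetate alone in limma (0.0955% of all intervals), and 8 had an unadjusted p under 0.05. DESeq2 called 6 (25.7% of all intervals with an adjusted p), and a fit of only the 4 libraries compared called 7 (23.3% of all). On the spike-in scale, 15 of the 20 passed with etomoxir (56.4% of all) and 9 with both inhibitors (27.4% of all). After median-of-ratios, total-sum or share-based scaling 0 passed in limma in either comparison, with 2 or 3 at an unadjusted p under 0.05 with etomoxir and 0 with both inhibitors. Without an intensity trend 8 passed with etomoxir (35.9% of all) and 0 with both inhibitors (0% of all), where 12 had an unadjusted p under 0.05. Single libraries moved these counts. The count with etomoxir fell to 2 without the etomoxir + acetate library of set 1 (8.05% of all intervals) and to 3 without the etomoxir library of set 2 (10.5%). It fell to 8 without the etomoxir library of set 1 (25%) and to 9 without the etomoxir + acetate library of set 2 (27%). With both inhibitors, it fell to 3 without the acetate-treated library of set 2 (3.31%) and reached 17 without the etomoxir + SB204990 library of set 2 (71.6%). For acetate alone it was 5 without the etomoxir + SB204990 library of set 1 or set 2 (21% and 21.2% of all intervals) and 6 without that with acetate of either set (8.98% and 8.99%).

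At Fos, all 5 tested intervals gained H3K27ac on average with acetate on the spike-in scale, where 77.2% of all intervals passed. The interval over the start had 101 and 116 scaled reads in vehicle, 191 and 182 with acetate, and 242 and 228 with etomoxir + acetate. The interval 23711 bp downstream had 104 and 84.0 in vehicle and 155 and 169 with acetate. The gains were of similar size along the locus. The average acetate effects were 0.65 at 14645 bp and 0.85 at 10627 bp upstream, 0.80 over the start, and 0.84 and 0.88 at 12152 and 23711 bp downstream, with SE of 0.23, 0.20, 0.14, 0.15 and 0.14. After median-of-ratios scaling the values were 0.01, 0.21, 0.15, 0.19 and 0.22 in the same order, and none passed (limma adjusted p = 0.70 or more). The differences between these intervals were not tested. The other 5 Fos intervals had means of at most 7.99 scaled reads and were not tested.

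**Figure D3:**
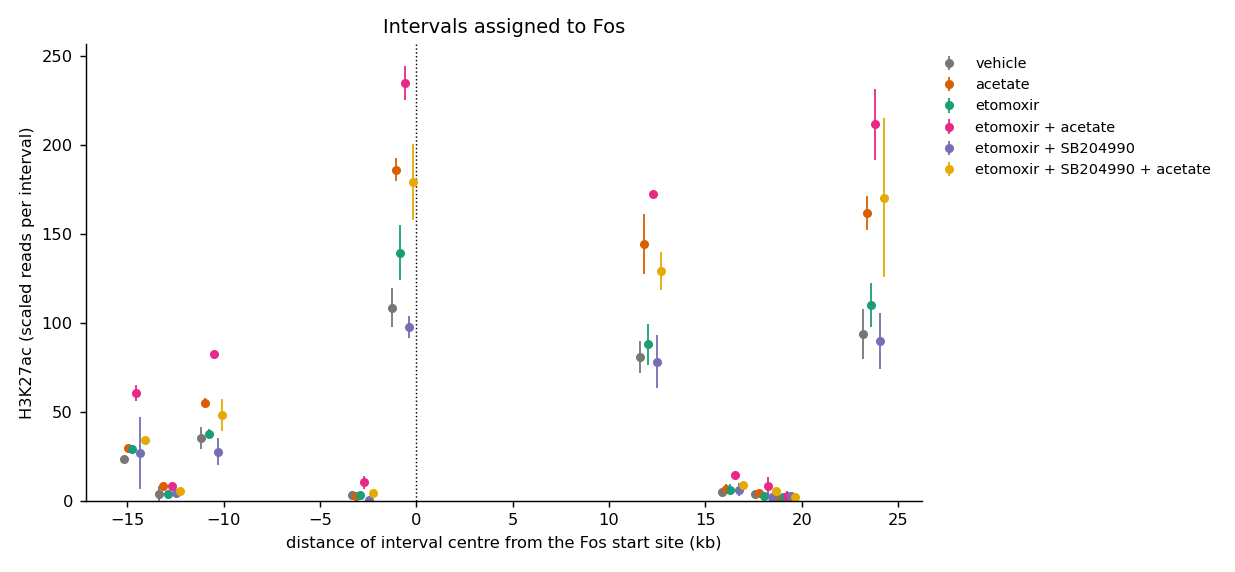
Scaled H3K27ac reads in each of the 10 intervals assigned to Fos against the distance of the interval centre from the start site in kb, as group means ± SD of 2 libraries (dotted line, GENCODE start; groups are set slightly apart sideways). In the 5 intervals with means of at least 10 the etomoxir + acetate libraries have the highest mean on the spike-in scale, and the vehicle libraries stay below the acetate libraries.

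At Atf3, the 4 tested intervals of its name passed for the average acetate effect on the spike-in scale, with values of 0.55 to 0.84, where 77.2% of all intervals passed. After median-of-ratios scaling the values were -0.09 to 0.20, and none passed (limma adjusted p = 0.73 or more). The interval over its RefSeq start changed by 0.67 ± 0.13 (limma adjusted p = 1.1e-06) on the spike-in scale and by 0.01 after median-of-ratios scaling. It had 156 and 203 scaled reads in vehicle and 269 and 262 with acetate. At Batf3, the start-site interval had 31.8 and 40.4 in vehicle, 54.9 and 55.1 with acetate, and 73.0 and 69.1 with etomoxir + acetate. It showed the largest average acetate effect of the 9 start sites, 0.99 ± 0.20 on the spike-in scale (percentile 97.1 of all intervals) and 0.35 after median-of-ratios scaling (limma adjusted p = 0.60). At these low counts the spread between libraries was wide, and with both inhibitors plus acetate the values were 36.2 and 70.2.

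The second question was what the inhibitors did. No AP-1 gene was called for etomoxir alone. Against vehicle, the 7 values ran from -0.17 to 0.23 on the log2 scale. None passed in limma, edgeR or DESeq2 (6 of the 7 had an adjusted p in DESeq2), or at an unadjusted p under 0.05 in any of them (0.0154% of all genes passed in limma). After median-of-ratios scaling the values ran from -0.31 to 0.09, with the sign turned at Atf3 (-0.11), Junb (-0.04) and Jund (-0.05), and none passed, beside 0.0874% of all genes. Averaged over cells with and without acetate, etomoxir came with values of 0.10 at Fosl2 to 0.33 at Fos, where the median of all genes was 0.29. Fos, Jun, Junb and Jund were higher with etomoxir in all 4 same-set pairs, and Fosl2, Atf3 and Batf3 in 3 of 4. The total of scaled reads over all intervals was also higher with etomoxir in all 4. Again 0 of 7 passed (0.298% of all genes), 1 had an unadjusted p under 0.05, and edgeR (7 genes) and DESeq2 (6 genes) called none. Without the etomoxir + SB204990 library of set 1 or set 2, 1 gene passed (32.4% and 32.7% of all genes). After median-of-ratios scaling 6 of these 7 values were below 0, the lowest -0.19 at Fosl2, none passed, and 0.324% of all genes did. Of the 20 intervals, 0 passed in limma, where 0.421% of all intervals did, and 2 had an unadjusted p under 0.05. Leaving out the etomoxir + SB204990 library of either set gave 1 (10.9% of all intervals). A fit of only the 8 libraries compared called 5 of the 7 genes and 6 of the 20 intervals on the spike-in scale, as it did 60.6% of all genes and 29.3% of all intervals.

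With both inhibitors the large blocks had less H3K27ac than in vehicle, but no call was made. Fosl2 had 2134 and 2155 scaled reads with etomoxir + SB204990, below 2891 and 2939 in vehicle. The log2 fold changes were -0.44 ± 0.18 for Fosl2, -0.42 ± 0.18 for Junb, -0.37 ± 0.20 for Jun and -0.32 ± 0.17 for Jund (limma adjusted p = 0.78 for each), where the median of all genes was -0.18. After median-of-ratios scaling these values were -0.26, -0.23, -0.19 and -0.14. On the spike-in scale the libraries of both groups did not overlap at these 4 genes, which lay at percentiles 4.96 to 18.3 of all genes. The share of all genes without overlap was not counted. At Fos the value was -0.12 ± 0.20, at Atf3 -0.07 ± 0.26 and at Batf3 -0.24 ± 0.36, and the sign at Fos and Atf3 turned after median-of-ratios scaling (0.07 and 0.11). Of the 7, 0 passed in limma, 2 had an unadjusted p under 0.05, edgeR called none, DESeq2 called none of the 4 genes with an adjusted p, and 0.00514% of all genes passed in limma.

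Without the etomoxir + SB204990 library of set 1 the changes at Fos, Atf3 and Batf3 turned to 0.10, 0.37 and 0.12. Averaged over cells with and without acetate, the effect of both inhibitors ran from -0.26 at Fosl2 to 0.07 at Atf3, and 0 of 7 genes passed in limma, with 1 at an unadjusted p under 0.05, none by edgeR or DESeq2 (0.0822% of all genes; 1.59% after median-of-ratios scaling, none of them among the 7). Of the 20 intervals 0 passed in limma, where 0.351% of all intervals did, 2 had an unadjusted p under 0.05, and 2 were called without the library of set 2 with acetate and both inhibitors (1.89% of all intervals).

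SB204990 added to etomoxir came with lower H3K27ac at 5 of 7 genes on the spike-in scale, Fos, Fosl2, Jun, Junb and Jund, where 45% of all genes passed and the median of all genes was -0.40. The average change was -0.45 ± 0.14 at Jun (limma adjusted p = 0.028), -0.41 ± 0.13 at Junb (0.028) and -0.40 ± 0.14 at Fos (0.031). These 5 genes were lower in all 4 same-set pairs, and so was the total of scaled reads over all intervals. By set, the changes of the 5 genes ran from -0.46 to -0.61 in set 1 and from -0.20 to -0.42 in set 2. Atf3 (-0.22 ± 0.18) and Batf3 (-0.31 ± 0.26) did not pass and were higher in 1 of 4 pairs each. After median-of-ratios scaling 0 of 7 passed in limma, as did 0% of all genes, and the values ran from -0.05 to 0.18, with the sign turned at Fosl2, Jund, Atf3 and Batf3.

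These calls rested on the full set of libraries. A fit of only the 8 libraries compared called 0 of the 7 genes and 0 of the 20 intervals in limma, as it did 0% of all genes and 0.0626% of all intervals, with 5 genes and 6 intervals at an unadjusted p under 0.05. Without an intensity trend 0 genes and 0 intervals passed in limma (0.00514% of all genes and 0% of all intervals), with 5 genes and 4 intervals at an unadjusted p under 0.05. The share of all features at that unadjusted level is not given for either fit. None of the 7 genes passed without the etomoxir library of set 1 or set 2, without the etomoxir + acetate library of set 1 or set 2, or without the set 1 library with acetate and both inhibitors, as did 0% of all genes each time. Without the etomoxir + SB204990 library or the acetate library of set 1, 3 passed (24.8% and 27.6% of all genes), and all 7 did without the etomoxir + SB204990 library of set 2 (85.1%). The values of all 9 start-site intervals were below 0 on the spike-in scale (-0.45 to -0.29), and 7 passed, all but those of Atf3 and Batf3, against 19.3% of all intervals. All 20 assigned intervals had values below 0 (-0.69 to -0.02), and the 5 over the starts of Fos, Fosl2, Jun, Junb and Jund passed. Leaving out each of the 5 libraries named first gave 0 called intervals (0.00469% to 0.801% of all intervals), and leaving out the etomoxir + SB204990 library of set 1 gave 2 (7.66%). Leaving out a vehicle or an acetate library gave 3 (11.8% to 14.5%), and leaving out the etomoxir + SB204990 library of set 2 gave 12 (67.2%).

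**Figure D4:**
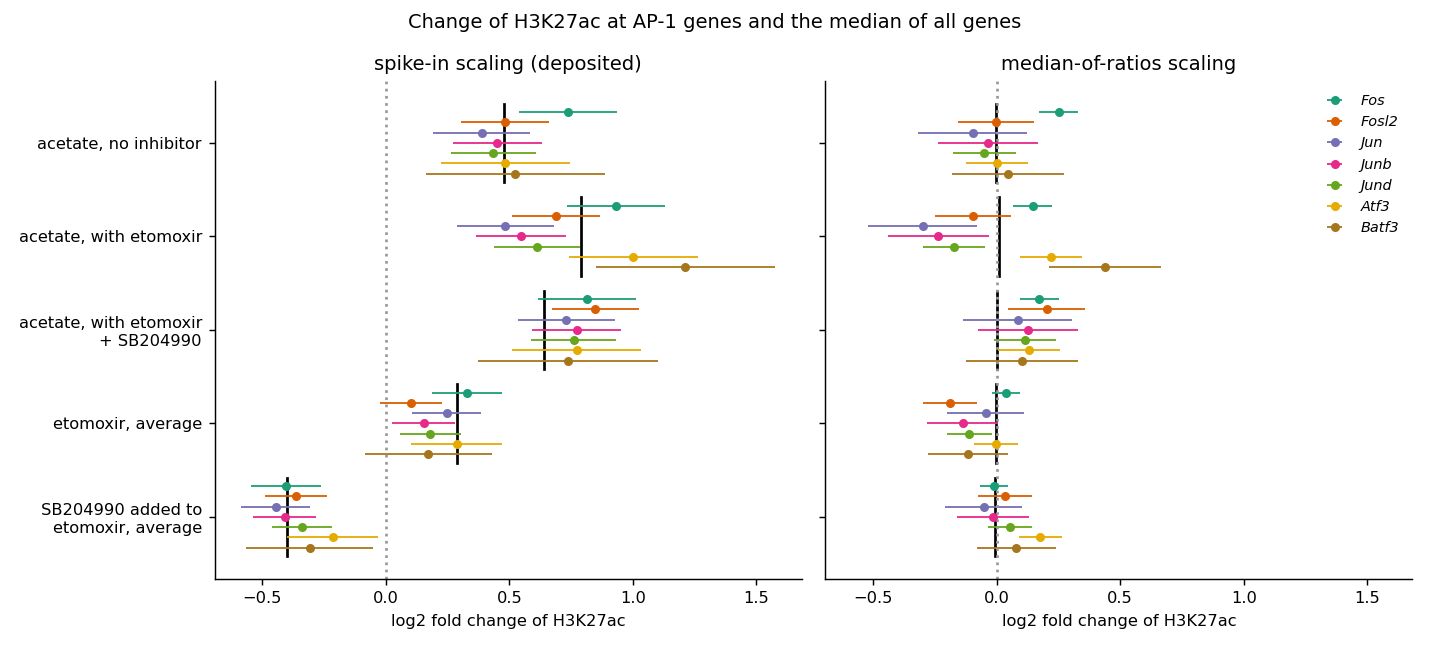
Log2 fold change of H3K27ac (± SE) at 7 AP-1 genes in 5 comparisons, with the deposited spike-in scaling (left) and after median-of-ratios scaling (right); black bars mark the median of all genes tested. On the left the points lie on both sides of the black bar in 4 comparisons (bar at 0.79 for acetate with etomoxir). For acetate with both inhibitors they lie above the bar, at 0.64. On the right the Jun, Junb, Jund and Fosl2 values for acetate with etomoxir fall below 0, and those for acetate with both inhibitors lie above 0.

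The partners, regulators and targets of AP-1 were counted in the same fits. Of 18 other bZIP genes (among them Atf2, Atf4, Creb1, Maff and Nfe2l2), 16 had an interval of their name, and all 16 passed for the average acetate effect on the spike-in scale, with a median of 0.63, where 88.2% of all genes passed and their median was also 0.63. All 20 of the tested upstream kinases and regulators passed (median 0.65, 24 listed), as did all 16 tested immediate early genes outside the family (median 0.69, 18 listed) and 20 of 21 tested AP-1 target genes (median 0.61, 22 listed). The exception was Ereg, the growth factor epiregulin (0.47, limma adjusted p = 0.10). The medians of these lists after median-of-ratios scaling were between -0.03 and 0.06, and none of their genes passed for the average acetate effect.

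For SB204990 added to etomoxir, 12 of 16 bZIP partners, 14 of 20 upstream genes, 11 of 16 immediate early genes and 14 of 21 targets passed as lower on the spike-in scale, beside 45% of all genes, and none passed after median-of-ratios scaling. For the average etomoxir effect none of these genes passed on the spike-in scale (0.298% of all genes). Mmp9, a matrix metalloproteinase gene with AP-1 sites in its promoter, was called for both inhibitors on average (-0.75, limma adjusted p = 0.012). It was the only listed gene called there, beside 0.0822% of all genes. It kept its direction after median-of-ratios scaling (-0.65, limma adjusted p = 0.00037). On that scale Areg, which encodes the growth factor amphiregulin, was called higher for both inhibitors (0.29, limma adjusted p = 0.024) and Mmp9 lower for etomoxir (-0.34, limma adjusted p = 0.035). Of all genes, 1.59% were called there for both inhibitors and 0.324% for etomoxir. Ereg, Mmp9 and Areg were named after their values were seen.

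The genes whose pattern over the 12 libraries was most like that of each AP-1 gene were sought among 15527 symbols with a mean of at least 50, on log2 values after median-of-ratios scaling. Pearson's r was 0.996 for Jun with Gas5, 0.991 for Junb with Tubb5, 0.990 for Jund with Nop53 and 0.986 for Fosl2 with BC029722. It was lower for Fos with Gm42802 (0.950), Atf3 with 2310008N11Rik (0.910) and Batf3 with Gm37876 (0.882). The mean pattern of the 7 genes was most like those of Gm14302 (0.987), Gm31513 (0.983) and Pias4 (0.980). All points share the 12 libraries and their depth, so these values only describe likeness.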

How the data were processed

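H3K27ac ChIP-seq was performed on 4T1 cells in 12 libraries. Chromatin was cut with micrococcal nuclease, nuclei were broken by sonication, and 7.5% human spike-in chromatin was added. According to the labels and the published methods, the authors ran nf-core/chipseq (version 1.2.2) on a merged GRCh38 and mm10 genome, called broad MACS2 intervals (cutoff 0.1), and used deepTools. Scaling factors were computed from the percentage of human reads and divided by the highest. The deposited signal is the read count of an interval multiplied by the factor. The factor was 1 in 2 libraries, so the authors' values there are read counts, and elsewhere 100% of values were whole multiples (tolerance 0.01) of 1 read. A wrong factor would shift every value of its library alike. No input library was used here, and whether replicates were pooled for interval calling is not given in the sources used here. An interval carries the name of its nearest gene.

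Intervals were summed per symbol, and 19458 of 22264 symbols and 63903 intervals with a mean of at least 10 were tested with limma (3.58.1, R 4.3.3) on log2(value + 1), which understates changes of low values, with an intensity trend and 6 group means over the 12 libraries. Comparisons numbered 11 for genes and 7 for intervals, with Benjamini-Hochberg adjustment within each over all features (threshold 0.05). The average effects weight the backgrounds equally, and comparisons share control libraries. The labels do not say that libraries of a group came from separate cultures, so p-values measure the spread between libraries, which may be technical. Alternatives were median-of-ratios, total-sum and share-based scaling, edgeR (4.0.16) and DESeq2 (1.42.0) on recovered reads, other filters and pseudocounts, and leaving out each library. Start sites were taken from GENCODE M21 and RefSeq (GRCm38.p6), and sequences from RefSeq. The members and lists were chosen with earlier results of these data known. Named are the 9 genes, their intervals of highest mean or over the start, and the symbols most alike by Pearson's r.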

Additional observations from a re-analysis of the deposited data

How the results depend on the processing

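Of 588 log2 fold changes of single genes recomputed without 1 library, 509 kept their direction and their side of the threshold, and of 581 under another setting 439 did. The counts of called genes for etomoxir against vehicle, both inhibitors against vehicle and both interactions stayed at 0 under each alternative run for them. Leaving out 1 library in turn left all 7 genes called for the average acetate effect (17 to 20 intervals), and 3 to 7 genes (2 to 17 intervals) for acetate with etomoxir. The count was 0 to 7 genes (3 to 17 intervals) for acetate with both inhibitors, 0 to 6 genes (0 to 6 intervals) for acetate alone, and 0 to 7 genes (0 to 12 intervals) for SB204990 added to etomoxir. It was 0 to 1 genes (0 to 1 intervals) for the average etomoxir effect, and 0 to 2 intervals for both inhibitors on average. The log2 fold change for both inhibitors against vehicle ran from -0.34 to 0.10 at Fos, from -0.51 to 0.37 at Atf3 and from -0.61 to 0.12 at Batf3, and that for SB204990 added to etomoxir at Atf3 from -0.43 to 0.0033.

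Under median-of-ratios, total-sum and share-based scaling, 0 genes and 0 intervals of the AP-1 family were called for the average acetate effect, for acetate with etomoxir, for acetate with both inhibitors and for SB204990 added to etomoxir. Median-of-ratios and total-sum scaling rescale each library by its typical gene or its total. Share-based scaling kept the log2 fold changes of the 7 genes for acetate with etomoxir (0.52 to 1.24, against 0.48 to 1.21), lowered the size of those for acetate alone, acetate with both inhibitors, the average acetate effect (0.33 to 0.62) and SB204990 added to etomoxir, and raised the SE, at Fos from 0.20 to 0.53 for acetate with etomoxir. Which scale is closer to the amount of mark was not tested. A fit of only the libraries compared gave 6 genes and 7 intervals for acetate alone (61.5% of all genes and 23.3% of all intervals), 5 genes and 6 intervals for the average etomoxir effect (60.6% and 29.3%), and 0 genes and 0 intervals for acetate with both inhibitors (0% and 0.00156%) and for SB204990 added to etomoxir (0% and 0.0626%). Without an intensity trend, 0 genes and 0 intervals were called for SB204990 added to etomoxir, 0 intervals for acetate with both inhibitors and 8 for acetate with etomoxir. DESeq2 called 4 genes and 6 intervals for acetate alone. With a mean of at least 50 fewer intervals were tested, and 5 were called for acetate alone, 7 for the average acetate effect and 7 for acetate with etomoxir. Without a filter, 2 intervals were called for SB204990 added to etomoxir. The shares of all intervals called under these other filters are not given here, so these counts cannot be set against all intervals. Using the interval over the start site, chosen after seeing the data, gave 9 of 9 on the spike-in scale for the average acetate effect, acetate with etomoxir and acetate with both inhibitors (77.2%, 56.4% and 27.4% of all intervals), and 0 of 9 for each after median-of-ratios scaling.

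With the set as a replicate block, 2 genes and 3 intervals were called for acetate alone (20% of all genes and 3.26% of all intervals), and the block changed no other count by over 1.5 times. Libraries of the same set deviated together in some pairs of groups but not in most. Correlations of deviations from the group means were between -0.22 and 0.60 over 15 pairs of groups. Their median was -0.14, and they were above 0.1 in 4. The set was therefore not taken as a pairing in the main fit.

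Signs turned mainly under median-of-ratios and total-sum scaling, given in that order. For the average acetate effect they were -0.10 and -0.092 at Jun, -0.049 and -0.036 at Junb, and -0.037 and -0.024 at Jund. For acetate alone they were -0.098 and -0.082 at Jun, -0.035 and -0.020 at Junb, -0.051 and -0.035 at Jund, and -0.0034 at Fosl2 under the first. For acetate with etomoxir they were -0.097 and -0.055 at Fosl2, -0.30 and -0.26 at Jun, -0.24 and -0.20 at Junb, and -0.17 and -0.13 at Jund. For SB204990 added to etomoxir they were 0.032 and 0.032 at Fosl2, 0.055 and 0.054 at Jund, 0.18 and 0.18 at Atf3, and 0.079 and 0.079 at Batf3. For both inhibitors against vehicle they were 0.066 and 0.11 at Fos, and 0.11 and 0.15 at Atf3. For the average etomoxir effect they were -0.19 and -0.17 at Fosl2, -0.045 and -0.022 at Jun, -0.14 and -0.12 at Junb, -0.11 and -0.088 at Jund, -0.12 and -0.094 at Batf3, and -0.0034 at Atf3 under the first. Share-based scaling turned Atf3 to 0.055 for SB204990 added to etomoxir, and Fos, Atf3 and Batf3 to 0.16, 0.20 and 0.028 for both inhibitors against vehicle. With intervals within 10 kb of the start by the deposited distance, Atf3 was 0.025 there. The cause was not tested. Precision was limited by 2 libraries per group and, at Batf3, by at most 104 scaled reads per library.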
